A study of Homo sapiens with 2 samples.

Results

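The BCL2 family comprises the proteins that decide whether the outer membrane of the mitochondrion stays intact. The 10 genes described are BCL2, BCL2L1, MCL1, BAX, BAK1, BCL2L11, PMAIP1, BBC3, BID and BIK, and they were followed through every probe set of the array whose only annotated gene symbol is one of them. Such probe sets were found for 9 of the 10 genes, 30 probe sets among 54613 on the array. BBC3, which encodes the p53-induced BH3-only protein PUMA, had none under this rule and was not analysed here.

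The family works as 3 classes. Guardians (BCL2, BCL-XL from BCL2L1, MCL-1) hold the pore formers in check, effectors (BAX, BAK) oligomerise in the outer membrane and let cytochrome c out, and BH3-only proteins (BIM from BCL2L11, NOXA from PMAIP1, BID, BIK) bind guardians or activate effectors when a cell is stressed. In epithelial cells the balance is set both by transcription of the BH3-only genes and by the rapid turnover of MCL-1 and NOXA.

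The cells were hTERT-RPE1, a human cell line from the retinal pigment epithelium that is known as immortalised by a telomerase transgene. One culture received a miR-129-3p oligo and the other a control oligo, by lipid transfection, in medium with 10% serum, and RNA was taken at 72 h. Each group was 1 Affymetrix array of 1 culture, so no value has a replicate error, no difference was tested, and oligo, culture and array cannot be told apart. The amount of oligo taken up was not measured on these arrays.

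The deposited values are probe set signals on a linear scale. The median over all probe sets was 98.0 on the miR-129-3p array and 96.5 on the control array, and 49.4% of probe sets on the miR-129-3p array and 48.9% on the control array reached 100, the signal required below on the brighter array for a probe set to be counted. Differences are log2(signal + 16) on the miR-129-3p array minus the same on the control array, and folds are on that scale, which understates those of dim probe sets. Over 6179 genes with several counted probe sets, probe sets of 1 gene differed from each other with a pooled SD of 0.37 in that difference, a spread that includes nothing of the spread between cultures. Of 8 retinal pigment epithelium markers fixed for a check, OTX2, MITF and PMEL reached 100 on both arrays, while RPE65, BEST1, RLBP1, TYR and TYRP1 did not on either array. MITF differed by -1.26 (1020 with miR-129-3p, 2470 in control), PMEL by 0.92 (229 with miR-129-3p, 114 in control) and OTX2 by 0.16. Of the 4 epithelial markers, the keratins KRT8 (4918 with miR-129-3p, 6138 in control) and KRT18 (2972 with miR-129-3p, 5787 in control) were bright. CDH1 had 89.7 with miR-129-3p and 103 in control, and EPCAM was under 100 on both arrays. The mesenchymal markers VIM (16201 with miR-129-3p, 18474 in control) and CDH2 (5448 with miR-129-3p, 6947 in control) were bright too. TERT, the telomerase gene, had 116 with miR-129-3p and 45.9 in control on 1 probe set and was under 100 on both arrays on the other. The part of these marker differences in the family results was not tested. Of 5 blood cell markers HBB and CD79A reached 100 on both arrays, with at most 149 on the miR-129-3p array and 162 on the control array.

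The transfected sequence is shown because it is the only intended difference between the cultures. The labels do not say which of the 2 human miR-129-3p forms was used. Both are given from RefSeq on GRCh38.p14, with the seed (bases 2 to 8) in capitals; the forms come from chr7:128207920-128207941 and chr11:43581450-43581471, both on the plus strand, share the seed and differ at base 20.
hsa-miR-129-1-3p: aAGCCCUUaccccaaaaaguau
hsa-miR-129-2-3p: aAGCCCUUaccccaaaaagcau

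The promoter windows of BCL2L11 and PMAIP1 are shown because these were the members with the largest differences. Each runs from 250 bases before the gene's start to 50 after it, from RefSeq on GRCh38.p14, plus strand, at chr2:111120664-111120963 and chr18:59899746-59900045. Capitals mark the FOXO letters GTAAACA in BCL2L11 and the cAMP response element core TGACGT, here on the reverse strand, in PMAIP1.
BCL2L11: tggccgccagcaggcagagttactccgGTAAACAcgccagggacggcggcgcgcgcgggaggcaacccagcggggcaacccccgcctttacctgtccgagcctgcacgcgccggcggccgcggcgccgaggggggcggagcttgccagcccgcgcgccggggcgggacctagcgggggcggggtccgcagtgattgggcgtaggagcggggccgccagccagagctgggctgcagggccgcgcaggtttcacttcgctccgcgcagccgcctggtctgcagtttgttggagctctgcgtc
PMAIP1: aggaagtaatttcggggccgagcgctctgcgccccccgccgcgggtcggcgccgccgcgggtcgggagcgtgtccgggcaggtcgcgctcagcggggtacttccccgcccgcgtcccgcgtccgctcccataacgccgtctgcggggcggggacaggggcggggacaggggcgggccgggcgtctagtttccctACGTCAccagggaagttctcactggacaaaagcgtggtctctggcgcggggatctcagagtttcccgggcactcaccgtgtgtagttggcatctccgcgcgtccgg

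Windows were matched for 8 of the 10 members (not MCL1 or BIK) and searched on both strands for 7 motifs chosen with the results known. GTAAACA, which FOXO factors bind, was present in the BCL2L11 window 223 bases before the start, and 3.42% of all 35116 windows hold it. TGACGT was present in the PMAIP1 window 56 bases before the start, and 7.98% of all windows hold it. The E-box CACGTG occurred 4 times in the BAX window, at 138, 93, 45 and 14 bases before the start. Of all windows 7.26% hold at least 1 E-box and 0.0142% hold 4 or more. The limit of 4 was taken from the BAX count, and the BAX window is among all windows, so this share is no independent background. The E-box was also in the BBC3 window and in 2 of the 5 windows of BID, which overlap and hold the same match. The interferon-stimulated response element, searched by name as its core repeat (3.57% of all windows), occurred in the BBC3 window alone among the members, with 2 overlapping matches just after the start, and a p53 half-site, searched by name (6.63%), in the BAK1 window alone. The GAS letters TTCNNNGAA (7.66%) and the CARE letters TGATGNAAT (0.991%), which STAT dimers and ATF4 with its partners bind, were in no window of the members. A match is a description of these letters and not of binding.

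Across the family, BIM and NOXA among the BH3-only genes and BCL-XL and MCL-1 among the guardians had higher signals on the miR-129-3p array. BAX and BAK1 were higher by less than 1.5-fold. MCL1 passed 1.5-fold on its brightest probe set alone. Its other counted probe sets, with differences of 0.55 to 0.58, were close to those of BAX, 0.48 and 0.56. On their brightest probe sets BCL2, BID and BIK were near their control values, BCL2 and BIK with low signals. All 3 BID probe sets were lower, with differences down to -0.39, while that of BAK1 was 0.36. BCL2L11 stood out, at 7.88-fold on its brightest probe set by the mean of both arrays, a choice that uses the miR-129-3p signal too. Its brightest probe set on the control array, 1553088_a_at, went the other way, at 332 with miR-129-3p and 382 in control. With the brightest probe set for each gene, 4 of the 9 genes exceeded the control by 1.5-fold or more, against 17.3% of all 12754 genes counted, and 0 lay 1.5-fold or more below it, against 10.8%. At 2-fold the count was 2 higher (7.83% of all genes) and 0 lower (4.56%). The median difference of the 9 genes was 0.48, against 0.03 over all genes counted. Since the arrays read the RNA of a whole culture, more cells with a transcript and more transcript per cell cannot be told apart.

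Probe set by probe set, 23 of the 30 were counted. Of those 23, 11 exceeded the control by 1.5-fold or more (16.7% of all 23707 counted probe sets) and 0 lay that far below it (11.1%), and at 2-fold the counts were 6 higher (7.55%) and 0 lower (4.8%). The 11 all belong to BCL2L11, PMAIP1, BCL2L1 and MCL1, with BCL2L11 giving more than any other gene. Probe sets of 1 gene are not independent, so these counts do not stand for that many members. Of the 23, 4 were counted only through the miR-129-3p array, 3 of BCL2L11 and 1 of BCL2L1, and 1 only through the control array, that of BIK. A probe set that entered only through 1 array had to read higher there. Among the 19 at 100 or more on the control array, 7 passed 1.5-fold upward, against 13.7% of all such probe sets, and 0 downward, against 11.9%. At 2-fold these counts were 3 upward, against 5.36%, and 0 downward, against 5.13%. Over all 30, with no minimum, 12 passed 1.5-fold upward (10.7% of all probe sets) and 1 downward (6.98%), and 7 passed 2-fold upward (4.69%) and 0 downward (2.84%).

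**Figure D1:**
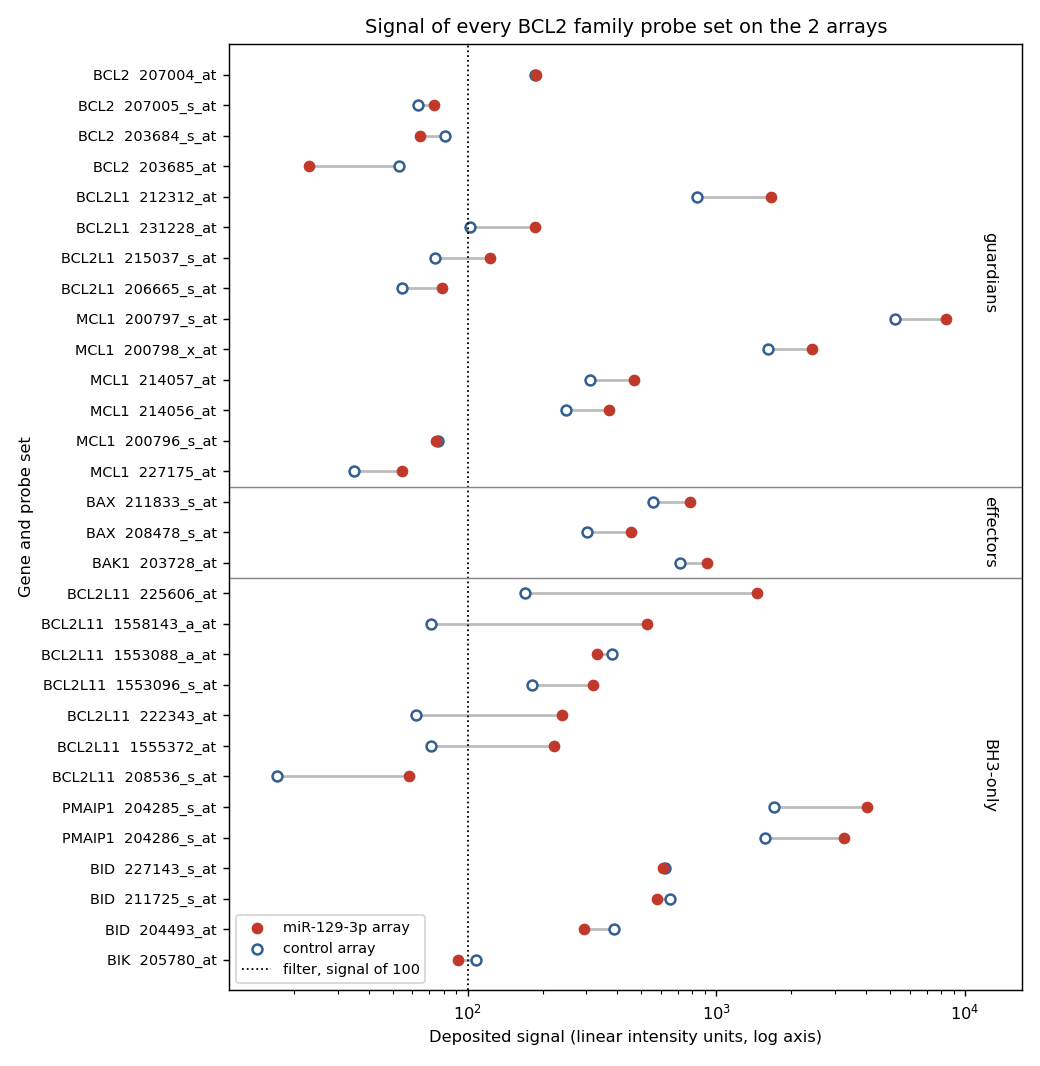
Deposited signal (linear intensity units, log axis) of each of the 30 BCL2 family probe sets on the miR-129-3p array (filled red) and the control array (open blue), grouped as guardians, effectors and BH3-only genes; 1 array a group, so there are no error bars, and the dotted line is the signal of 100. BCL2L11 shows the widest gaps, up to 1450 against 170, all 4 MCL1 pairs above the dotted line lie apart in the same direction, and the pair of BCL2 at 188 against 186 nearly coincides.

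BCL2L11 encodes BIM, a BH3-only protein that binds every guardian and can activate BAX and BAK directly. Its brightest probe set by the mean of both arrays, 225606_at, had a signal of 1450 on the miR-129-3p array and 170 on the control array. That is a log2 difference of 2.98, rank 132 from the top among the 12754 genes. The control signal of this probe set was above 100, though near the 162 of the blood gene HBB on the same array, and no background level is given in the sources used here.

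Further BCL2L11 probe sets had dim control signals. Probe set 1558143_a_at had 525 on the miR-129-3p array and 71.4 on the control array, 222343_at had 240 with miR-129-3p against 61.8 in control, and 1555372_at had 222 with miR-129-3p against 71.6 in control. Set against 100 in place of the dim control, they were at least 4.66-fold, at least 2.21-fold and at least 2.05-fold higher on the same scale. Probe set 208536_s_at was under 100 on both arrays, at 58.0 with miR-129-3p and 17.2 in control, and enters only the counts made with no minimum.

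The remaining pair of BCL2L11 probe sets differed less or the other way. Probe set 1553096_s_at had 320 on the miR-129-3p array and 181 on the control array, a difference of 0.77. Probe set 1553088_a_at had 332 on the miR-129-3p array and 382 on the control array, a difference of -0.19. It is the exception among the 6 counted probe sets of the gene, and the brightest of them on the control array. Differences of these 6 had an SD of 1.17, against the pooled 0.37 for all genes, and their mean was 1.56. BIM transcripts are spliced into several forms, and which form each probe set reads was not analysed here.

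**Figure D2:**
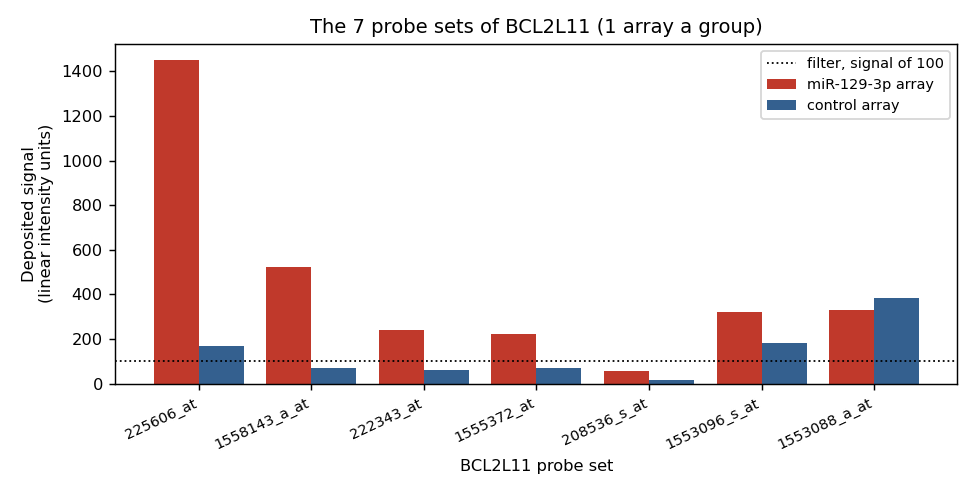
Deposited signal (linear intensity units) of the 7 BCL2L11 probe sets on the miR-129-3p array (red) and the control array (blue), ordered by their difference; 1 array a group, and the dotted line is the signal of 100. Signals are higher on the miR-129-3p array for 6 of the 7, and lower for 1553088_a_at, at 332 against 382.

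PMAIP1 encodes NOXA, a short BH3-only protein that binds MCL-1 and promotes its degradation, and is a known target of p53 and of the integrated stress response. Its probe set 204285_s_at had 4025 on the miR-129-3p array and 1708 on the control array, a difference of 1.23. Its other probe set, 204286_s_at, had 3258 with miR-129-3p and 1569 in control, a difference of 1.05. Both were at least 2-fold higher, and both signals were far above 100 on both arrays.

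BID, which links death receptors to mitochondria once caspase-cleaved, was not higher on any of its 3 probe sets. Probe set 227143_s_at had 609 on the miR-129-3p array and 620 on the control array, a difference of -0.02. Probe set 211725_s_at had 577 with miR-129-3p against 650 in control, a difference of -0.17. Probe set 204493_at had 293 with miR-129-3p against 388 in control, a difference of -0.39. BIK, a BH3-only protein of the endoplasmic reticulum, had 91.3 on the miR-129-3p array and 108 on the control array on its single probe set, a difference of -0.21 near the minimum signal.

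MCL1, the short-lived guardian that NOXA and BIM bind, had its brightest probe set, 200797_s_at, at 8401 on the miR-129-3p array and 5212 on the control array. That is a difference of 0.69, or 1.61-fold. Probe set 200798_x_at gave 2433 with miR-129-3p and 1619 in control, 214057_at gave 466 with miR-129-3p and 309 in control, and 214056_at gave 370 with miR-129-3p and 248 in control. These 3 lay just under 1.5-fold. The 4 differences ran from 0.55 to 0.69 with an SD of 0.06, the closest agreement among the members with over 2 counted probe sets. A pair of dim probe sets, under 100 on both arrays, had 74.3 on the miR-129-3p array and 76.1 on the control array (200796_s_at), and 54.6 with miR-129-3p and 35.0 in control (227175_at).

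BCL2L1 encodes BCL-XL, the guardian of many epithelial cells, and by splicing also a shorter pro-apoptotic form. Probe set 212312_at had 1664 on the miR-129-3p array and 837 on the control array, a difference of 0.98 that lies just under 2-fold. Probe set 231228_at had 187 with miR-129-3p and 102 in control, and 215037_s_at had 122 on the miR-129-3p array and 73.9 on the control array. Probe set 231228_at differed by 0.78, and 215037_s_at, whose control signal was dim, was at least 1.19-fold higher when set against 100, short of the 1.5-fold that its measured signals pass. The fourth, 206665_s_at, was under 100 on both arrays, at 78.9 with miR-129-3p and 54.5 in control. All 4 were higher on the miR-129-3p array. The probe sets were not assigned to the long or the short form.

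BCL2, the founding guardian of the family, was counted through 207004_at alone, at 188 on the miR-129-3p array and 186 on the control array, a difference of 0.02. Its other 3 probe sets were under 100 on both arrays. Probe set 207005_s_at had 73.2 on the miR-129-3p array and 63.4 on the control array, 203684_s_at had 64.1 with miR-129-3p and 81.3 in control, and 203685_at had 23.1 with miR-129-3p and 52.9 in control. The last of these, 203685_at, is the member probe set that passed 1.5-fold lower when no minimum was set. Within the guardians, the counted probe sets of BCL2L1 and MCL1 were therefore higher with miR-129-3p while that of BCL2 was near equal. The BCL2 signals were not far above those of the blood gene HBB, at 149 with miR-129-3p and 162 in control. Near equal therefore describes a low signal and not a level of BCL2 transcript known to be present.

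The effectors differed by less than 1.5-fold. BAX had 781 on the miR-129-3p array and 555 on the control array on 211833_s_at, and 453 with miR-129-3p and 303 in control on 208478_s_at, differences of 0.48 and 0.56. BAK1 had 919 on the miR-129-3p array and 712 on the control array, a difference of 0.36. All 3 probe sets were higher with miR-129-3p. BAX and PMAIP1 are also classical p53 targets.

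**Figure D3:**
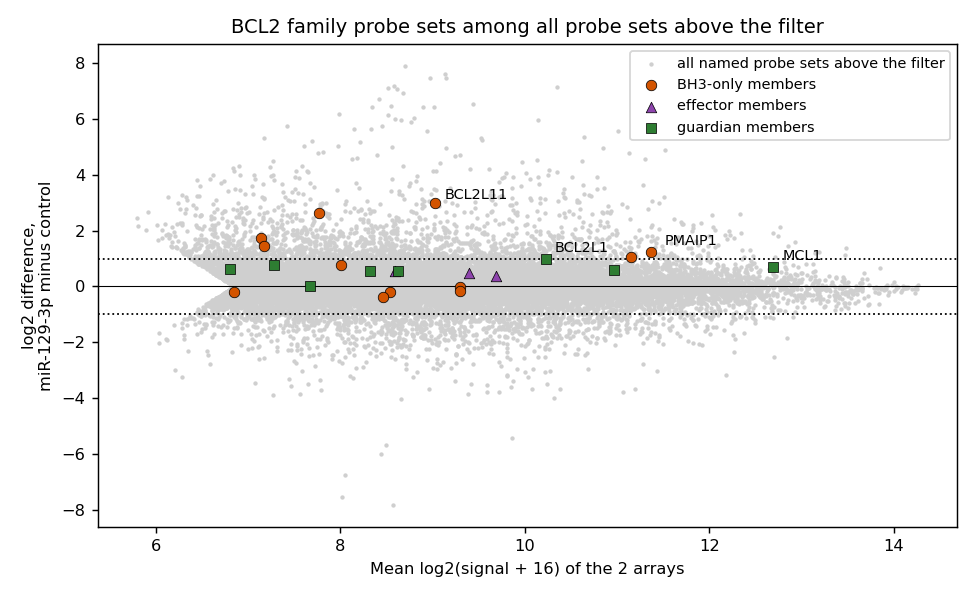
The log2 difference, miR-129-3p minus control, against the mean log2(signal + 16) of both arrays, for all 23707 named probe sets counted (grey) and the 23 of BCL2 family genes (coloured by class); dotted lines mark 2-fold. The members past the upper line are 4 probe sets of BCL2L11 and both of PMAIP1, and no member is past the lower line.

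The rest of the mitochondrial pathway was described from 60 other genes in 9 lists, each gene by its brightest probe set. Of these, 56 could be named from a probe set and 50 were counted. In all, 5 of the 50 passed 1.5-fold upward with miR-129-3p (10.0%), against 17.3% of all genes, and 6 downward, against 10.8%, and their median difference was -0.05. The lists thus went both ways, and few genes in them were past 1.5-fold.

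Other guardians were near equal. BCL2L2 (BCL-w) differed by -0.07 and BCL2L10 by -0.10, and BCL2L12 by -0.33. Of the 3 counted, 0 were past 1.5-fold, against 17.3% of all genes upward and 10.8% downward. BCL2A1, a guardian gene induced by NF-kappaB, was under 100 on both arrays, at 28.9 with miR-129-3p and 13.1 in control.

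Among other multi-domain members, BOK, a BAX-like protein, had 492 on the miR-129-3p array and 1163 on the control array, 2.32-fold lower. The other BOK probe set was under 100 on both arrays, at 83.85 with miR-129-3p and 80.65 in control. BCL2L13, a mitophagy receptor of the outer membrane, had 2275 on the miR-129-3p array and 1197 on the control array, a difference of 0.92. The other counted probe sets of BCL2L13 differed by 0.51, 0.47 and -0.32, so they did not all go one way. BCL2L14 and BCL2L15 were not counted.

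Among the other BH3-only genes and relatives, 0 of 6 counted were past 1.5-fold, against 17.3% of all genes upward and 10.8% downward. BMF, which senses loss of attachment, differed by 0.47 (1836 on the miR-129-3p array, 1318 on the control array), and BNIP3, a mitophagy receptor, by 0.39. BNIP3L, its relative, differed by -0.53, and BAD, which growth factor kinases restrain, by -0.25. HRK was not counted, with every probe set under 100 on both arrays.

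Downstream of the pore, the apoptosome and caspase list had 1 of 6 counted genes past 1.5-fold upward, CASP8 (17.3% of all genes), and 0 downward (10.8%). This initiator caspase of death receptors, which cleaves BID, had 875 on the miR-129-3p array and 254 on the control array, a difference of 1.73. Its second counted probe set gave 188 with miR-129-3p and 72.1 in control, while the remaining one was under 100 on both arrays. CASP2 differed by 0.46, CASP6 by -0.51, and CYCS, which encodes cytochrome c, by -0.40. The 4 genes of other released proteins, DIABLO, HTRA2, AIFM1 and ENDOG, differed by 0.18 to 0.27. The 3 VDAC channel genes differed by -0.17 to -0.04.

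Among the caspase inhibitors, BIRC5 (survivin, which also acts in mitosis) had 243 on the miR-129-3p array and 1222 on the control array, 4.77-fold lower. Its other 3 probe sets differed by -2.37 to -1.83. XIAP, which blocks caspases directly, differed by -0.53 on its brightest probe set, and BIRC2 (cIAP1) by 0.54.

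Among genes for the turnover of family proteins, the genes past 1.5-fold downward were CDC20 and UBE2C, which also act in mitosis. CDC20, the activator of the anaphase-promoting complex, had 188 on the miR-129-3p array and 1424 on the control array, a difference of -2.82. UBE2C, the ubiquitin-conjugating enzyme of that complex, had 478 with miR-129-3p and 1772 in control, a difference of -1.86. BTRC, an F-box protein, was higher by 0.86 on its brightest probe set, with its other counted probe sets at 0.10 and 0.26. HUWE1, a ubiquitin ligase for MCL-1, differed by -0.02 on its brightest probe set and by -0.97 to -0.06 on its other 3 counted ones. This list had 1 of 8 counted genes past 1.5-fold upward (17.3% of all genes) and 2 downward (10.8% of all genes).

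Among transcription factors known to act on family genes, 2 of 14 counted passed 1.5-fold upward (14.3%, against 17.3% of all genes) and 2 downward (14.3%, against 10.8%). Both shares are near those of all genes. IRF1, an interferon-induced factor, had 2248 on the miR-129-3p array and 688 on the control array, a difference of 1.69, with its other probe set at 1.58. DDIT3 (CHOP), a factor of the integrated stress response, had 1083 with miR-129-3p and 429 in control, a difference of 1.30. FOXO3, a factor known to activate BCL2L11, had 1704 on the miR-129-3p array and 2925 on the control array, a difference of -0.77, and its other 3 probe sets differed by -0.64 to -0.29. FOXO1, of the same family, differed by 0.49 (204 with miR-129-3p, 141 in control), with its other counted probe set at 0.51. MYC differed by -0.69. Whether any of these moved the family genes was not tested.

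**Figure D4:**
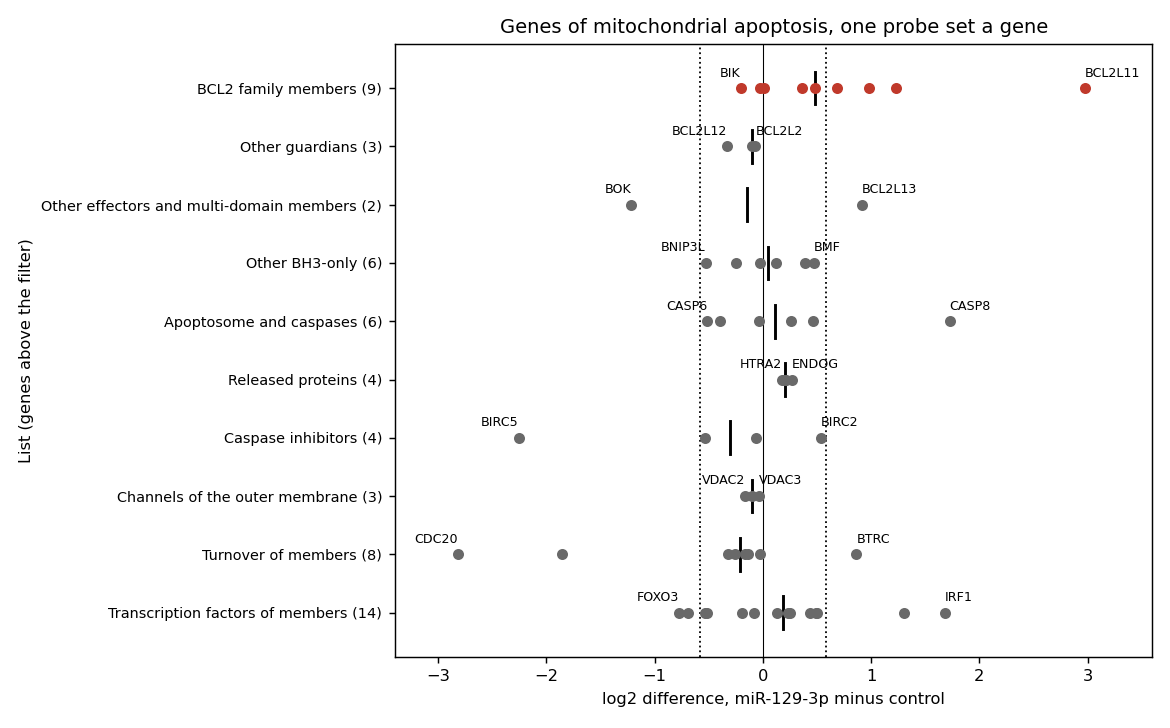
The log2 difference, miR-129-3p minus control, of each counted gene on its brightest probe set, for the 9 BCL2 family genes (red) and 9 lists of other genes of mitochondrial apoptosis (grey), with the number of genes in brackets; black ticks are list medians and dotted lines mark 1.5-fold. BCL2L11 is highest at 2.98, and CDC20 and BIRC5 are lowest at -2.82 and -2.25.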

How the data were processed

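The deposited table holds 1 intensity per probe set and array on a linear scale, from 1 to 20822. MAS5 and RMA are named, per the submitters' processing notes; which of them made the deposited intensities, the scaling between arrays, versions and detection calls are not given in the sources used here. A floor or compression of low values upstream would affect the dim probe sets. Groups came from the genotype field of the labels.

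Of 54613 probe sets, 41091 had 1 gene symbol in the platform annotation, 1801 had several and 11721 were not listed there; both of these kinds were left out. A probe set was counted where either array read 100 or more, and each gene was read from its brightest probe set (mean of both log2 levels). Differences were taken on log2(intensity + 16), which understates those of dim genes. With 1 array a group no test was made, and limits of 1.5-fold and 2-fold describe these 2 arrays; their number limits the precision. The text names every member and, per list, up to 2 genes at each end, with further genes chosen after their values were seen. The members, lists and motifs were chosen with earlier results of these data known. The code was tested on simulated data. Tables were handled with pandas 2.3.3 and numpy 2.4.6 under Python 3.11.15, the loess trend was fitted with statsmodels 0.14.6, and plots were drawn with matplotlib 3.10.9. Other scalings, added constants, filters, probe set choices and a limit of 3-fold were tried.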

Additional observations from a re-analysis of the deposited data

How the results depend on the processing

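Differences of the 9 BCL2 family genes past 1.5-fold kept their sign under every alternative that gave a value. BCL2L11 ranged from 1.56 (mean of its counted probe sets, which include the one lower with miR-129-3p) to 3.08, PMAIP1 from 1.14 to 1.24, BCL2L1 from 0.79 to 0.99 and MCL1 from 0.57 to 0.75. BCL2, not past 1.5-fold, ranged from -0.09 to 0.02. The median over the member genes ranged from 0.36 to 0.69, over member probe sets from 0.51 to 0.59 and over the other pathway genes from -0.11 to -0.05. With a limit of 3-fold, 3 member probe sets (3.26% of all probe sets), 1 member gene and 2 pathway genes (3.71% of all genes) were higher and 3 pathway genes (1.73%) lower. Without probe sets ending in _x_at, _s_at or _a_at, 11 member probe sets of 7 genes remained. PMAIP1 and BAX had none left, and MCL1, at 0.57, was no longer past 1.5-fold. Of those that remained, 5 probe sets (17.7% of all) and 2 genes (17.9%) passed 1.5-fold upward. At 2-fold 3 probe sets (8.13%) and 1 gene (8.16%) passed upward. Of the pathway genes 3 passed 1.5-fold upward (17.9% of all genes) and 2 passed 2-fold downward (4.82%). A filter on a mean of 200 left 7 of 17 member probe sets past 1.5-fold upward (18.0% of all). A filter of 100 on the control array, chosen after seeing the data, left 7 at 1.5-fold (13.7% of all) and 3 at 2-fold (5.36%) of 19. With no filter 1 member probe set was at least 1.5-fold lower (6.98%). Quantile normalization put 10 pathway genes at least 1.5-fold lower (12.5% of all genes), against 6 in the report, and the cause was not tested; averaging over probe sets put 3 past 1.5-fold upward (16.1%). Setting signals under 100 to 100, also chosen after seeing the data, gave BCL2L11 probe sets 1558143_a_at, 222343_at and 1555372_at differences of 2.22, 1.15 and 1.04, and left 10 member probe sets past 1.5-fold upward (15% of all), without 215037_s_at of BCL2L1. No paired analysis was possible because each group has 1 array. Leaving out a replicate could not be run for the same reason, and without detection calls the signal of 100 is no measured background.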
